A study of Mus musculus with 10 samples.

Results

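Poly(A) RNA was measured by sequencing in 10 mouse kidney libraries of a study that expressed variants of human APOL1, a gene of the apolipoprotein L family with kidney disease risk alleles, in podocytes, the epithelial cells of the glomerular filter. The 6 libraries described here are those whose genotype label names no risk allele: 3 labelled wild type (single mutant) and 3 labelled Control. They were compared by the letters that open their titles. The NA-titled set is NA_27, labelled wild type (single mutant), with NA_30 and NA_39, both labelled Control. The other-titled set is G1NF_28 and GNA1_18, both labelled wild type (single mutant), with NAP_3, labelled Control. The letters of a title are not a factor that the labels state, and what they stand for is not explained. The labels give neither the sex, age, strain nor time of harvest of these mice, they do not explain the words single mutant, and they do not tie a library to an animal, so the tests below measure the spread between libraries. Each set holds both genotype labels, in the proportions 1 to 2 and 2 to 1, so title and genotype label are partly mixed.

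Library totals ran from 27596391 to 31349832 counts. Levels are given as CPM, counts scaled to a library of 1000000 counts, and a count of 3, the floor used here for a gene near 0, equals 0.0957 to 0.109 CPM. Kidney segments were represented in all 6: the proximal tubule phosphate transporter Slc34a1 lay at 6390 to 7633 CPM, the thick ascending limb gene Umod at 2524 to 3667 CPM and the collecting duct water channel gene Aqp2 at 231 to 603 CPM. The tubular injury markers Lcn2 and Havcr1 lay at 2.10 to 4.38 and 1.997 to 5.04 CPM, against 126 to 412 and 63.7 to 424 CPM in the 4 libraries with risk alleles. A wider list of 35 tubular injury genes summed to 1685 to 1746 CPM in the NA-titled and 1230 to 1354 CPM in the other-titled libraries. The difference rests largely on the abundant genes Spp1, with means of 716 and 517 CPM, and Clu, with 306 and 170 CPM. Of the 34 tested, 26 had positive log2 fold changes and 9 lay above in all 3 NA-titled libraries, next to 13.1% of all genes. Havcr1 alone lay below in all 3, next to 13.3% of all genes, with a log2 fold change of -0.68. In the tests given below, edgeR and limma-voom called none of the 34 and DESeq2 called 6, and 12 had an unadjusted p under 0.05 in edgeR. The Y-linked gene Ddx3y was at 43.3 to 47.9 CPM and Xist at 0.268 to 0.408 CPM in the 6. Mitochondrial genes took 6.32% to 8.92% of the counts. On the first principal component of log2 CPM, which held 44.7% of the variance, the NA-titled libraries scored 38.2, 12.9 and 48.3 and the others -31.3, -39.6 and -28.5.

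Of 16262 genes tested between the title sets, 187 (1.15%) were higher and 274 (1.68%) lower in the NA-titled libraries (edgeR's quasi-likelihood test, Benjamini-Hochberg adjusted p under 0.05). In this text a gene rose or fell, or was called, when it passed that test, with the NA-titled set set against the other. The median log2 fold change was 1.07 among the genes that rose and -0.75 among those that fell, against 0.01 over all genes tested. Every called gene had all 3 libraries of one set above all 3 of the other. That separation held for 13.1% of all genes tested in the direction of higher NA-titled values and for 13.3% in the other direction, so most separated genes did not pass. The counts rested on few libraries. There were 9 and 3 calls without GNA1_18, 28 and 19 without NA_27, 35 and 48 without NAP_3, 55 and 86 without G1NF_28, 55 and 73 without NA_39, and 192 and 204 without NA_30. Scaled by library totals alone, 194 genes were higher and 192 lower, so the excess of lower genes was not seen under that scaling. With the genotype label as a further term 52 and 61 genes were called, of which 100 were among the 461 called without it. A total of 9 genes were called in all 12 alternatives: Cyp2d12, Defb1, Kcng1, Ly6c2, Msl3, Ndrg1, Npas2, Prps2 and Pttg1.

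**Figure D1:**
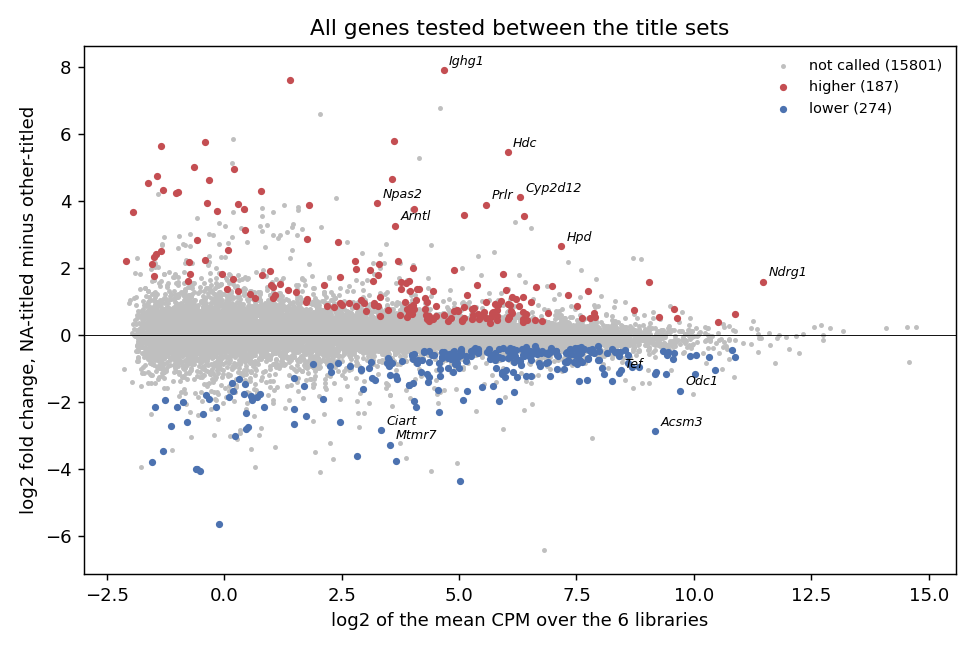
Log2 fold change between the title sets (vertical axis, NA-titled minus other-titled) against the log2 of the mean CPM over the 6 libraries (horizontal axis) for the 16262 genes tested; red points are the 187 called higher, blue points the 274 called lower. Called genes lay at all levels, from Ndrg1 among the most abundant to low-level genes near the filter.

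Some genes of the circadian clock separated the title sets, with 2 activators higher and 4 other clock genes lower in the NA-titled libraries. In the molecular clock the activators CLOCK and BMAL1 (the product of Arntl), or NPAS2 in place of CLOCK, bind E-boxes and drive genes of the Per, Cry, Nr1d and PAR bZIP families. PER and CRY proteins inhibit the activators, while the REV-ERB proteins encoded by Nr1d1 and Nr1d2 repress Arntl and Npas2 through ROR elements. Transcripts of activators and of E-box targets therefore peak at opposite times of day, and kidney is among the tissues where many transcripts follow this cycle. Promoters of 4 clock genes that rose or fell are shown with their matches to motifs of this circuit in capitals: the E-box CACGTG, the D-box TTANNTAA that PAR bZIP factors and Nfil3 bind, and AGGTCA, the half-site of ROR elements, each searched on both strands; the variant E-box CACGTT was searched too and has no match in these. The sequences are RefSeq promoters on GRCm38.p6, 300 bases each and mostly before the start site, 5′ to 3′ in the direction of the gene.
Ciart, chr3:95882179-95882478, minus strand: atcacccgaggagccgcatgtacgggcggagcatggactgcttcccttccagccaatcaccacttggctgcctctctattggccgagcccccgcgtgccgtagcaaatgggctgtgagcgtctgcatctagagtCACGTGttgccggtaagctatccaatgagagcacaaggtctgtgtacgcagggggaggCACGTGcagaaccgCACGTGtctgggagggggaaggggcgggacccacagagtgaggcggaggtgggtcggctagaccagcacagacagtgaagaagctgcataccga
Per3, chr4:151044616-151044915, minus strand: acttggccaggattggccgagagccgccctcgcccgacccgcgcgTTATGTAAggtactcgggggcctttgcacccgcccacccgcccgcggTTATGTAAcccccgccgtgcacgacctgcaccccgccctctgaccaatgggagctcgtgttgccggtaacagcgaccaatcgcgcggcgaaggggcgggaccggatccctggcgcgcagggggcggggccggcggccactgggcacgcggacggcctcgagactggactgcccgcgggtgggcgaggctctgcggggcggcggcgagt
Tef, chr15:81802423-81802722, plus strand: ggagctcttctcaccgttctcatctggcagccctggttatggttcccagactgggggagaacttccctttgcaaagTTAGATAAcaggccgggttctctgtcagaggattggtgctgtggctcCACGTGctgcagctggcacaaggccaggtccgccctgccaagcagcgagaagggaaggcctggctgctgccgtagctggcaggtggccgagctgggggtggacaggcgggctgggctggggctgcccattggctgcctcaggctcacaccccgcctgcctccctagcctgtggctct
Arntl, chr7:113207261-113207560, plus strand: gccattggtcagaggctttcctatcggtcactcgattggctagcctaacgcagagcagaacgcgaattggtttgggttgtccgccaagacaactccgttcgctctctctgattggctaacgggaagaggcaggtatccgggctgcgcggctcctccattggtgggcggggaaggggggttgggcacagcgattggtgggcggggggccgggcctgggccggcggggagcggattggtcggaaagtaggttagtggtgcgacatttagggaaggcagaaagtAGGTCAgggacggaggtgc
The Ciart window holds 3 E-boxes, which begin 116, 58 and 44 bases before the start site. The Per3 window holds 2 D-boxes, which begin 205 and 158 bases before it. In the Tef window 1 E-box begins 127 and 1 D-box 174 bases before the start site. The Arntl window holds 1 AGGTCA, in its transcribed part. Arntl and Tef each have a second RefSeq window, not shown: that of Arntl (chr7:113207215-113207514) holds none of these motifs and that of Tef holds 1 E-box. Over 32851 mouse promoter windows of this length, 7.15% hold an E-box, 6.003% a D-box and 16.3% an AGGTCA. Of 21 clock genes searched, 18 had a promoter entry, and 5 of these hold an E-box, 3 a D-box and 5 an AGGTCA. The windows of Npas2 and Dbp hold none of these motifs. A match describes letters and not a bound site.

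Of 4 clock activator genes 2 rose, Arntl and Npas2. In every series of values that follows, the order is G1NF_28, GNA1_18 and NAP_3 for the other-titled set and NA_27, NA_30 and NA_39 for the NA-titled set. Arntl was at 1.53, 2.77 and 2.72 CPM in the other-titled and 31.8, 20.4 and 15.6 CPM in the NA-titled libraries, a log2 fold change of 3.27 ± 0.34 (SE; adjusted p = 0.0139 in edgeR). Npas2 was at 0.860, 1.52 and 1.10 CPM against 25.3, 13.6 and 14.8 CPM, a log2 fold change of 3.94 ± 0.33 (adjusted p = 0.00861 in edgeR). For both genes all 3 NA-titled libraries stood far above all 3 others, with the highest level in NA_27. Clock, whose product pairs with that of Arntl, was at 42.3, 46.2 and 45.8 CPM against 59.0, 47.7 and 45.6 CPM and was not called. Arntl2, a paralog of Arntl, was not called either, with a log2 fold change of -0.63 ± 0.49. The log2 difference for Arntl was 3.90 within wild type (single mutant) and 2.69 within Control, and for Npas2 4.39 and 3.61. Because the sets did not overlap in these genes, a positive sign within each label was fixed in advance. The values give sizes only and do not test the genotype label. Npas2 was called in all 12 alternatives, and Arntl in all but the fit without GNA1_18.

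Of 8 period, cryptochrome and related repressor genes 2 fell, of 5 nuclear receptor genes 1, and of the 4 PAR bZIP and Nfil3 genes 1. Per3, a period gene, was at 63.4, 50.1 and 49.9 CPM in the other-titled and 12.1, 19.7 and 19.6 CPM in the NA-titled libraries, a log2 fold change of -1.67 ± 0.20 (adjusted p = 0.0173 in edgeR). Ciart, which encodes a repressor of the CLOCK and BMAL1 complex, was at 18.4, 12.6 and 22.0 CPM against 1.01, 2.93 and 3.42 CPM, a fold change of -2.85 ± 0.43 on the log2 scale (adjusted p = 0.0303 in edgeR). Nr1d2, the gene for REV-ERB beta, was at 133, 125 and 132 CPM against 41.4, 51.6 and 73.1 CPM, or -1.23 ± 0.19 on the log2 scale (adjusted p = 0.0305 in edgeR). Tef, a PAR bZIP factor, was at 474, 468 and 451 CPM against 153, 250 and 231 CPM, or -1.14 ± 0.17 on the log2 scale (adjusted p = 0.0303 in edgeR). In all 4 genes the 3 NA-titled libraries lay below the 3 others, and NA_27 was the lowest. Dbp, a PAR bZIP factor known for its large daily swing, was at 133, 88.5 and 99.7 CPM against 4.96, 10.8 and 29.8 CPM. Its libraries did not overlap, but with a log2 fold change of -2.82 ± 0.59 it missed the threshold (adjusted p = 0.0588 in edgeR). Dbp was called in DESeq2 (adjusted p = 0.00350), in limma-voom (0.0324), without the low-count filter (0.0121), with all 10 libraries in the fit (0.0312) and without NA_39 (0.0213); with the genotype label as a term its adjusted p was 0.0842. Without GNA1_18 none of Per3, Ciart, Nr1d2 and Tef was called. Without NAP_3 or without G1NF_28 the calls of Ciart, Nr1d2 and Tef were lost, without NA_39 those of Ciart and Tef, and without NA_27 or without NA_30 that of Nr1d2.

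The remaining core genes were not called. Per1 was at 91.6, 66.4 and 117 CPM against 26.6, 64.4 and 64.4 CPM and Per2 at 82.4, 66.6 and 68.9 CPM against 23.6, 54.4 and 16.6 CPM. The 2 cryptochromes differed from each other: Cry2, at 33.4, 38.8 and 36.9 CPM against 12.9, 27.3 and 20.9 CPM, did not overlap between the sets, whereas Cry1, at 8.38, 13.6 and 12.6 CPM against 10.46, 19.1 and 4.96 CPM, did. Nfil3, which binds the same D-box as the PAR bZIP factors and represses through it, was at 8.22, 4.77 and 5.51 CPM against 23.6, 29.0 and 8.34 CPM, with its highest values in NA_27 and NA_30. Nr1d1, the gene for REV-ERB alpha, was at 61.6, 34.7 and 50.6 CPM against 40.3, 19.4 and 47.5 CPM and overlapped, unlike its paralog Nr1d2. Hlf, the third PAR bZIP gene, was at 209, 196 and 207 CPM against 105, 172 and 163 CPM. Over the 21 core clock genes, 2 rose, 4 fell and 15 were not called, next to 1.15% of all genes higher and 1.68% lower. Rora, Rorb, Bhlhe40 and Bhlhe41 had log2 fold changes from -0.39 to 0.52. None of 8 clock kinase and ubiquitin ligase genes was called in edgeR, where 1 had an unadjusted p under 0.05, nor in limma-voom, and 1 was called in DESeq2.

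**Figure D2:**
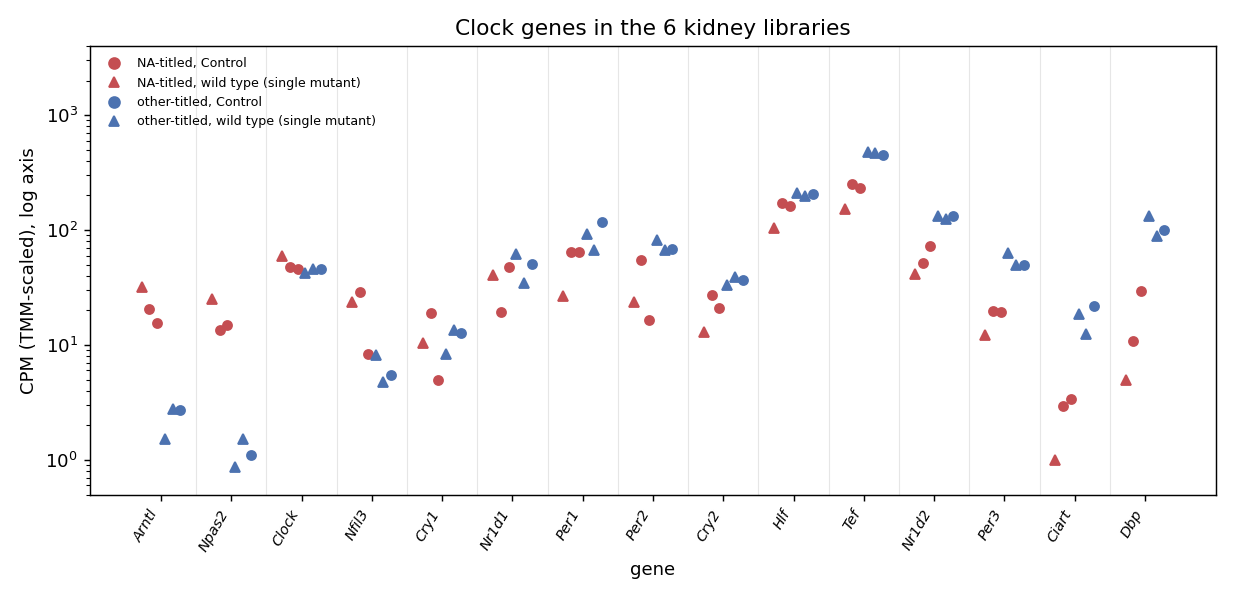
Level of 15 clock genes (TMM-scaled CPM on a log axis) in each of the 6 libraries; red marks NA-titled and blue other-titled libraries, circles Control and triangles wild type (single mutant). Arntl and Npas2 are high in the red libraries, Dbp, Ciart, Per3, Nr1d2 and Tef are high in the blue ones, and Clock, Cry1 and Nr1d1 overlap.

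The NA-titled libraries differed among themselves along the clock genes. The log2 level of Arntl minus that of Dbp was -6.38, -4.96 and -5.16 in the other-titled libraries and 2.66, 0.92 and -0.93 in NA_27, NA_30 and NA_39. NA_27 held the lowest Dbp, Ciart, Per3, Tef and Nr1d2 and the highest Arntl and Npas2. NA_39 held the lowest Per2 and Cry1, and NA_30 the highest Nfil3 and Cry1, so the 3 NA-titled libraries did not keep 1 order across clock genes. Neither harvest times nor clock phases are known for these libraries, and no phase was computed. Of 18 tested genes of a list of clock outputs, 1 rose and 2 fell, next to 1.15% and 1.68% of all genes. All 3 NA-titled libraries lay below all 3 others in 7 of the 18 and above in 2, next to 13.3% and 13.1% of all genes. Sums of the 19 listed output genes overlapped, at 1797, 1972 and 2054 CPM against 1127, 1957 and 1328 CPM. Por, the electron donor of cytochrome P450 enzymes, was at 474, 462 and 461 CPM against 284, 343 and 298 CPM and fell by 0.60 on the log2 scale. Coq10b, a coenzyme Q binding protein gene, was at 78.2, 84.9 and 84.1 CPM against 28.5, 49.2 and 36.8 CPM, and Leo1, of the RNA polymerase-associated PAF1 complex, at 10.4, 11.6 and 11.7 CPM against 22.3, 21.01 and 16.5 CPM (adjusted p = 0.0303, 0.0347 and 0.0347 in edgeR). The calls of Por and Coq10b were lost without G1NF_28, GNA1_18, NAP_3, NA_27 or NA_39, and that of Leo1 without G1NF_28, GNA1_18, NAP_3, NA_27 or NA_30; with the genotype label as a term Por and Leo1 were not called. The 5 genes with the profile most like that of Dbp by Pearson's r of log2 CPM over the 6 libraries, which share their sets, were Nr1d2 (r = 0.994), Fam210a (0.985), Unc45a (0.982), Fut8 (0.981) and Atf2 (0.980). Apart from Nr1d2 none of them was called, and their ranges over the 6 libraries were at most 0.63 on the log2 scale.

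Transcripts of IgG, made by B cells and above all by plasma cells, were higher in the NA-titled libraries. B cells first express IgM and IgD and then switch to IgG, IgA or IgE by joining another constant gene. Ighg1, the constant gene of IgG1, was at 0.191, 0.135 and 0.294 CPM in the other-titled and 126, 9.05 and 16.8 CPM in the NA-titled libraries, a log2 fold change of 7.93 ± 1.39 (adjusted p = 0.0380 in edgeR). The other-titled values rest on 6, 4 and 8 counts. Ighg2c was at 0.255, 0.169 and 0.881 CPM against 36.6, 4.96 and 30.3 CPM, or 5.80 ± 0.93 on the log2 scale (adjusted p = 0.0314 in edgeR). Ighg2b was at 0.446, 0.575 and 1.69 CPM against 42.9, 7.96 and 17.8 CPM, or 4.68 ± 0.77 (adjusted p = 0.0341 in edgeR). Ighg3 was at 0.0637, 0.0338 and 0.1102 CPM against 3.36, 1.48 and 1.91 CPM (adjusted p = 0.0139 in edgeR). The other-titled values of Ighg3 are 2, 1 and 3 counts, at or under the floor, so no fold is given. All 4 IgG genes rose, and in each the 3 NA-titled libraries lay above the 3 others. Ighg1 was highest in NA_27, and without NA_27 its log2 fold change was 5.95 with an adjusted p of 0.0193 in edgeR. The calls of Ighg2b and Ighg2c were lost without G1NF_28, GNA1_18, NAP_3, NA_27 or NA_39, that of Ighg1 without G1NF_28, GNA1_18, NAP_3 or NA_39, and that of Ighg3 without GNA1_18. In limma-voom Ighg1 (adjusted p = 0.216), Ighg2b and Ighg2c were not called, and with the genotype label as a term Ighg2b and Ighg2c were not.

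Other abundant immunoglobulin genes were not called. Igha, the constant gene of IgA, was at 9.81, 34.1 and 305 CPM against 167, 209.7 and 731 CPM and was not called. The kappa light chain gene Igkc was at 6.05, 24.6 and 209 CPM against 262, 159.8 and 494 CPM, and Jchain, which joins IgA and IgM into polymers, at 1.85, 4.36 and 34.8 CPM against 51.0, 44.6 and 116 CPM. In these 3 genes NAP_3 lay far above G1NF_28 and GNA1_18 and within or just under the range of the NA-titled libraries. Ighm, for IgM, was at 5.89, 5.04 and 6.24 CPM against 76.7, 14.95 and 18.4 CPM, without overlap but not called. As a share of all heavy chain constant counts of a library, IgG genes took 5.59%, 2.26% and 0.947% in the other-titled and 46.1%, 9.44% and 8.18% in the NA-titled libraries, with 95% Wilson intervals of 3.94% to 7.86%, 1.56% to 3.27%, 0.763% to 1.18%, 45.3% to 46.9%, 8.81% to 10.1% and 7.84% to 8.53% that cover counting error only. IgA took 57.4%, 84.6% and 97.0% in the other-titled and 36.8%, 84.4% and 89.3% in the NA-titled libraries. NA_27 held the lowest IgA and the highest IgG share, and NAP_3 the highest IgA and the lowest IgG share.

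Over 268 annotated immunoglobulin segments, 76 were tested, 15 rose and 0 fell, next to 1.15% of all genes higher. Segments near 0 in the other-titled libraries, Ighg1, Ighg3 and Ighv1-82 among them, passed the low-count filter only through the NA-titled set. The 76 were thus in part chosen for high NA-titled values, and the counts of 15 and 0 do not test a direction. Segments with at least 1 count numbered 88, 110 and 156 in the other-titled and 192, 170 and 192 in the NA-titled libraries. The summed level of the segments was 28.6, 78.5 and 597 CPM in the other-titled and 925, 515 and 1615 CPM in the NA-titled libraries, so the sums overlapped through NAP_3. The variable segment Ighv1-82 was at 0.0637, 0.135 and 0.294 CPM against 1.76, 1.61 and 6.40 CPM, or 4.30 ± 0.78 on the log2 scale (adjusted p = 0.0418 in edgeR). Reads of such segments can be shared with near-identical copies. The call of Ighv1-82 was lost without G1NF_28, GNA1_18, NAP_3, NA_27 or NA_39, with the genotype label as a term and in limma-voom. Of 14 tested plasma cell genes none was called in edgeR, DESeq2 or limma-voom, and 5 had an unadjusted p under 0.05 in edgeR. Their median log2 fold change was 0.25, with 11 positive, and 3 lay above in all 3 NA-titled libraries, next to 13.1% of all genes. Sums of the 16 plasma cell genes overlapped, at 517 to 678 CPM in the NA-titled and 476 to 622 CPM in the other-titled libraries. Mzb1 was at 1.31, 1.08 and 1.54 CPM against 2.26, 1.74 and 3.68 CPM. Pou2af1 and Xbp1 overlapped between the sets. Pou2af1 was at 0.191, 0.203 and 0.661 CPM against 1.73, 0.516 and 2.01 CPM, and Xbp1, also used by secretory and tubule cells, at 163, 203 and 200.1 CPM against 170.1, 249 and 197 CPM. Of 10 tested B cell genes 1 rose, next to 1.15% of all genes: Cd79a of the B cell receptor, at 0.287, 0.169 and 0.330 CPM against 1.01, 0.870 and 1.88 CPM (adjusted p = 0.0452 in edgeR). Of the 17 B cell genes 10 passed the low-count filter, and Cd79a passed it through the NA-titled set. The count of B cell genes that rose thus does not test a direction. The call of Cd79a was lost without G1NF_28, GNA1_18, NAP_3, NA_27 or NA_39, with the genotype label as a term and in limma-voom. In bulk tissue fewer cells of a type and less RNA per cell cannot be told apart. The summed level of the 24 macrophage and dendritic cell markers was 495 to 2027 CPM in the NA-titled and 315 to 370 CPM in the other-titled libraries, that of the 17 B cell markers 13.2 to 19.99 against 8.72 to 13.1 CPM, and that of the 30 T and NK cell markers, which overlapped, 21.2 to 31.1 against 18.1 to 23.8 CPM. Cd74, an MHC class II gene given below, is on the macrophage list and made up most of its 2027 CPM in NA_39. The sum without Cd74 is not given, so the first range does not describe macrophage markers as a whole. No marker of these 3 lists was at 0 in all 6 libraries. None of the 24 macrophage and 24 tested T and NK cell markers was called in edgeR, with 14 and 7 at an unadjusted p under 0.05, while DESeq2 called 9 and 0 and limma-voom 1 and 0. Of them 14 and 13 lay above in all 3 NA-titled libraries, next to 13.1% of all genes, and their part in the immunoglobulin result was not tested.

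**Figure D3:**
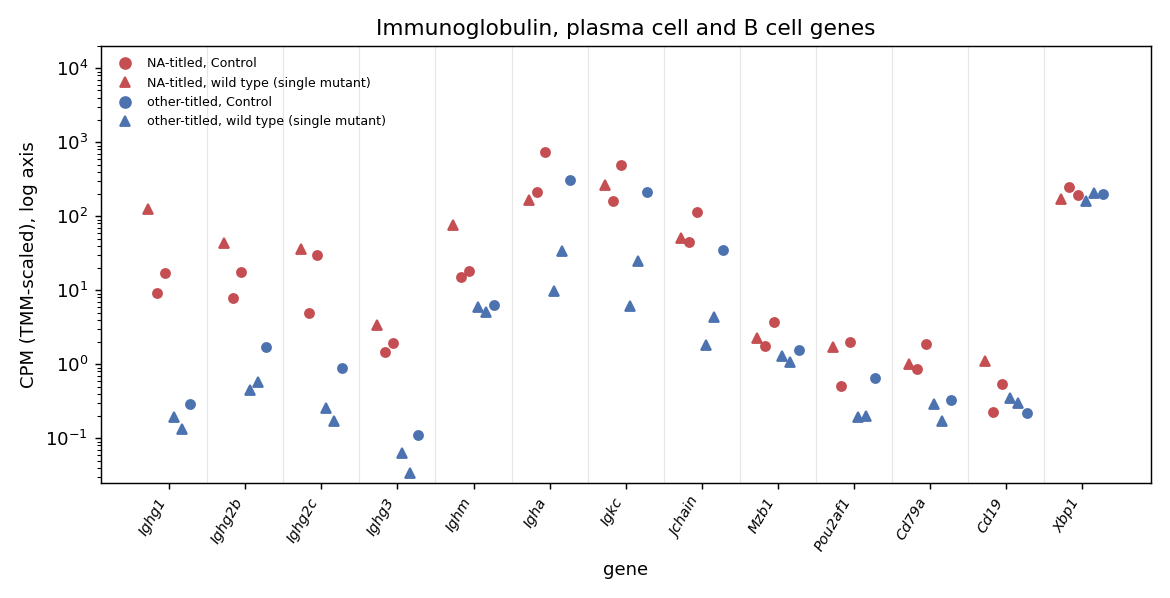
Level of immunoglobulin constant genes and of plasma cell and B cell genes (TMM-scaled CPM on a log axis) in each library; red marks NA-titled and blue other-titled libraries, circles Control and triangles wild type (single mutant). The 4 IgG genes at the left separate the sets, whereas Igha, Igkc and Jchain place the blue circle, NAP_3, among the red libraries or next to them.

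Some genes with sex-biased expression in mouse kidney separated the sets, while Ddx3y and Xist lay in the narrow ranges given above. In mouse kidney many such genes respond to androgens. Cyp2d12, a cytochrome P450 gene, was at 9.62, 7.74 and 8.15 CPM in the other-titled and 128, 159 and 157 CPM in the NA-titled libraries, a log2 fold change of 4.12 ± 0.13 (adjusted p = 0.000126 in edgeR). The 3 NA-titled libraries lay close together, as did the 3 others, and Cyp2d12 was called in all 12 alternatives. Prlr, the prolactin receptor gene, was at 10.4, 2.84 and 4.70 CPM against 147, 47.6 and 74.6 CPM, or 3.90 ± 0.59 on the log2 scale (adjusted p = 0.0303 in edgeR), and Hao2, a peroxisomal hydroxyacid oxidase gene, at 326, 182 and 283 CPM against 844, 515 and 1033 CPM, or 1.60 ± 0.30 (adjusted p = 0.0445 in edgeR). These were the 3 of 15 genes on a list of female-biased genes that rose, next to 1.15% of all genes, and none of the list fell. The median log2 fold change over the 15 was 0.13, with 9 of them positive. Rnf24, of the same list, lay the other way without being called, at 106, 56.9 and 76.1 CPM against 36.8, 32.9 and 20.6 CPM. So did Ttc36, at 745, 963 and 769 CPM against 521, 734 and 548 CPM.

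Of 20 male-biased genes, 6 fell, next to 1.68% of all genes, and none rose, with a median of -0.77 on the log2 scale over the 20. Acsm3, a medium-chain acyl-CoA synthetase gene, was at 757, 1441 and 845 CPM against 172, 158 and 83.2 CPM, a log2 fold change of -2.88 ± 0.35 (adjusted p = 0.0177 in edgeR). Odc1, which encodes ornithine decarboxylase of polyamine synthesis, was at 830.1, 1807 and 1181 CPM against 369.7, 429 and 404 CPM, or -1.67 ± 0.26 on the log2 scale (adjusted p = 0.0309 in edgeR). Slc22a28, an organic anion transporter gene, was at 100.0, 115 and 103 CPM against 37.5, 46.9 and 47.8 CPM, or -1.27 ± 0.11 (adjusted p = 0.00943 in edgeR). The glucuronosyltransferase gene Ugt2b38 was at 1298, 1623 and 1383 CPM against 544, 784 and 596 CPM, or -1.16 ± 0.16 (adjusted p = 0.0233 in edgeR). Cyp7b1 and Slc22a30 were the other genes of the list that fell. Kap, the kidney androgen-regulated protein gene and among the most abundant transcripts of the tissue, was at 25446, 37994 and 30582 CPM against 17625, 21426 and 14324 CPM; its sets did not overlap, but it was not called (adjusted p = 0.0838 in edgeR). Slc7a13 and Cyp4b1, also male-biased, had log2 fold changes of 0.16 and -0.03 and were not called. Cyp4a12b of the same list lay above in all 3 NA-titled libraries, with a log2 fold change of 0.72, and was not called. Calls were lost without GNA1_18 or NA_27 for Acsm3, without GNA1_18, NAP_3, NA_27 or NA_39 for Prlr, without G1NF_28, GNA1_18, NAP_3, NA_27 or NA_39 for Hao2, without GNA1_18, NAP_3, NA_27, NA_30 or NA_39 for Odc1, without GNA1_18, NAP_3, NA_27 or NA_39 for Ugt2b38, without GNA1_18, NAP_3, NA_27, NA_30 or NA_39 for Slc22a30 and without GNA1_18 for Slc22a28. With the genotype label as a term Hao2, Odc1, Ugt2b38, Cyp7b1 and Slc22a30 were not called, with all 10 libraries in the fit Acsm3, Ugt2b38 and Slc22a30 were not, and GNA1_18 held the highest Acsm3, Odc1 and Ugt2b38 of the 6 libraries. The decarboxylase gene Hdc, which makes histamine and was not on the list, was at 4.97, 1.89 and 1.80 CPM against 105, 94.96 and 185 CPM, or 5.46 ± 0.48 on the log2 scale (adjusted p = 0.00880 in edgeR), and its call was lost only without GNA1_18 among the alternatives.

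In each metabolic list at most 6 genes were called. Acot1, a cytosolic acyl-CoA thioesterase gene, was at 37.5, 39.7 and 40.0 CPM against 79.3, 91.6 and 66.1 CPM, and Retsat, which saturates retinol, at 189, 169.5 and 188 CPM against 277, 305 and 286 CPM (log2 fold changes 1.02 ± 0.12 and 0.67 ± 0.08, adjusted p = 0.0170 and 0.0168 in edgeR). Both are targets of PPAR-alpha, the fatty acid sensing nuclear receptor, and in a list of 21 tested targets 3 rose, next to 1.15% of all genes, and none fell. Pdk4, another target, overlapped between the sets: it was at 28.2, 29.6 and 78.4 CPM against 37.2, 127 and 42.5 CPM, with its highest value in NA_30. Of 38 fatty acid oxidation genes 2 rose, Acot1 and the acyl-CoA synthetase gene Acsl1, and 4 fell, next to 1.15% and 1.68% of all genes. The 4 had log2 fold changes from -0.97 to -0.51. All 3 NA-titled libraries lay below all 3 others in 10 of the 38 and above in 6, next to 13.3% and 13.1% of all genes. The list summed to 9775 to 11012 CPM in the NA-titled and 11473 to 13316 CPM in the other-titled libraries. Crot and Crat encode carnitine acyltransferases, Acox3 a peroxisomal acyl-CoA oxidase and Acot12 a thioesterase, and Crot was at 515, 623 and 488 CPM against 330.1, 263 and 239.5 CPM (adjusted p = 0.0303 in edgeR). The calls of Crot, Crat and Acsl1 were lost on leaving out any 1 library. Calls were also lost without G1NF_28, GNA1_18, NAP_3 or NA_27 for Acot1, without GNA1_18, NAP_3 or NA_27 for Retsat, without G1NF_28, GNA1_18, NAP_3, NA_27 or NA_39 for Acox3 and without GNA1_18, NAP_3, NA_27 or NA_39 for Acot12. With the genotype label as a term Acsl1, Crat, Acox3 and Acot12 were not called, with library totals alone Acsl1 and Crat were not, and with all 10 libraries in the fit Acsl1, Acox3 and Acot12 were not.

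Enzymes that take apart amino acids gave 6 rises and no fall among 47 tested, next to 1.15% of all genes. Hpd, the dioxygenase of tyrosine breakdown, was at 31.4, 42.3 and 44.1 CPM against 244, 184 and 318 CPM, a log2 fold change of 2.66 ± 0.23 (adjusted p = 0.00861 in edgeR). The other 5 handle one-carbon units of glycine, choline and betaine. Bhmt, which passes a methyl group of betaine to homocysteine, was at 2.04, 0.778 and 1.21 CPM against 10.6, 5.41 and 12.1 CPM. Amt of the glycine cleavage system was at 43.3, 26.7 and 37.0 CPM against 99.7, 71.5 and 103 CPM, and Shmt1, which interconverts serine and glycine, at 53.2, 41.99 and 48.4 CPM against 112, 80.2 and 108 CPM. Sardh and Dmgdh, which demethylate sarcosine and dimethylglycine, rose by 0.76 and 0.50 on the log2 scale. Adjusted p was 0.0304, 0.0303, 0.0267, 0.0303 and 0.0477 in edgeR for Bhmt, Amt, Shmt1, Sardh and Dmgdh. The median of the whole list was 0.05, close to that of all genes. With the genotype label as a term Bhmt, Amt, Shmt1, Sardh and Dmgdh were not called, while Hpd was, and with all 10 libraries in the fit Amt and Dmgdh were not. The call of Hpd was lost without GNA1_18, those of Bhmt and Amt without GNA1_18, NAP_3, NA_27 or NA_39, that of Shmt1 without G1NF_28, GNA1_18, NAP_3, NA_27 or NA_39, that of Sardh without G1NF_28, GNA1_18, NAP_3 or NA_27, and that of Dmgdh on leaving out any 1 library.

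The central pathways showed few calls. Among 56 nuclear genes of oxidative phosphorylation, 21 of the tricarboxylic acid cycle, 25 of cholesterol synthesis and uptake and 24 of lipogenesis none was called in edgeR or limma-voom, and their median log2 fold changes lay from -0.12 to 0.01. In the same order 8, 5, 9 and 7 of them had an unadjusted p under 0.05 in edgeR, and DESeq2 called 1, 3, 5 and 3. All 3 NA-titled libraries lay below all 3 others in 5, 10, 6 and 4 of them, next to 13.3% of all genes, and above in 6, 1, 2 and 1, next to 13.1%. Sums of the tricarboxylic acid cycle genes were 11374 to 11570 CPM in the NA-titled and 12020 to 12865 CPM in the other-titled libraries. Those of cholesterol genes were 1675 to 1881 against 2088 to 2276 CPM and of lipogenesis 2434 to 2795 against 2829 to 3695 CPM, while oxidative phosphorylation sums overlapped. Of 16 gluconeogenesis genes 1 fell, next to 1.68% of all genes: Pcx, the pyruvate carboxylase gene, at 850.4, 937 and 924 CPM against 676, 611 and 599.7 CPM (adjusted p = 0.0321 in edgeR). Their sums were 17293 to 17951 CPM in the NA-titled and 18420 to 20792 CPM in the other-titled libraries. Of 25 glycolysis genes, whose sums overlapped, 1 rose, next to 1.15% of all genes: the phosphoglycerate mutase gene Pgam2, at 29.4, 37.1 and 29.0 CPM against 65.9, 64.8 and 57.8 CPM (adjusted p = 0.0168 in edgeR). Of 37 xenobiotic enzymes 3 rose, the glutathione transferase genes Gstt1 and Gsta3 and the quinone reductase gene Nqo1, and 1 fell, Ugt3a1, next to 1.15% and 1.68% of all genes. All 3 NA-titled libraries lay below all 3 others in 10 of the 37 and above in 7, next to 13.3% and 13.1% of all genes. Sums of the xenobiotic list were 9608 to 10938 CPM in the NA-titled and 11143 to 12087 CPM in the other-titled libraries. Gstt1 was at 98.6, 98.4 and 93.5 CPM against 181, 225 and 255 CPM, or 1.19 ± 0.13 on the log2 scale (adjusted p = 0.0139 in edgeR). The call of Pcx was lost on leaving out any 1 library, that of Pgam2 without NAP_3 or NA_27, that of Gstt1 without GNA1_18 or NAP_3, that of Gsta3 without GNA1_18, NAP_3, NA_27 or NA_39, that of Nqo1 without G1NF_28, GNA1_18, NAP_3, NA_27 or NA_39 and that of Ugt3a1 without GNA1_18 or NA_27. With the genotype label as a term Pcx, Gsta3, Nqo1 and Ugt3a1 were not called, and with all 10 libraries in the fit Ugt3a1 was not. The summed S3 markers, given with the tubule segments, lay lower in the NA-titled set, and their part in these results was not tested.

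**Figure D4:**
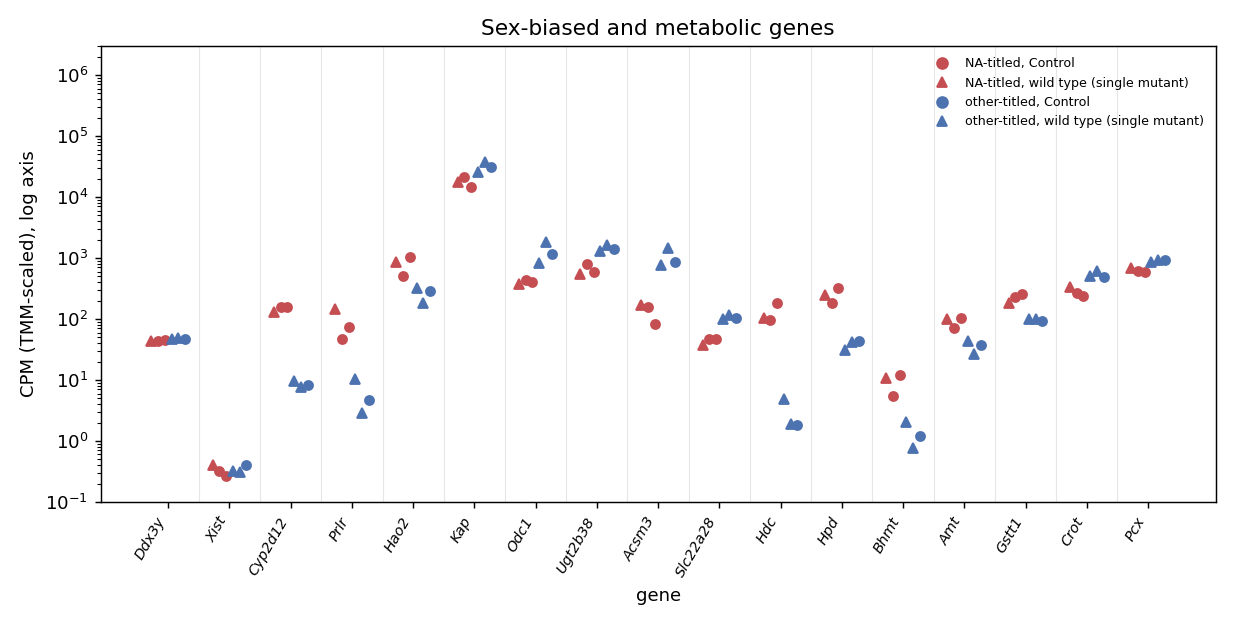
Level of Y-linked Ddx3y, Xist, sex-biased and metabolic genes (TMM-scaled CPM on a log axis) in each library; red marks NA-titled and blue other-titled libraries, circles Control and triangles wild type (single mutant). Ddx3y and Xist are alike in all 6, Cyp2d12, Prlr, Hdc and Hpd are high in the red libraries, and Odc1, Ugt2b38, Acsm3 and Slc22a28 are high in the blue ones.

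Genes of tubule segments were divided. Of 20 genes of the S3 segment, the straight end of the proximal tubule, 4 fell, next to 1.68% of all genes, and none rose: Atp11a, a phospholipid flippase gene, at 1769, 1969 and 1917 CPM against 1089, 944 and 719 CPM (adjusted p = 0.0301 in edgeR), the transporter gene Slc22a19, and Acsm3 and Cyp7b1, which are on the male-biased list too. The S3 genes Slc7a13, Cyp4b1, Slco1a1 and Serpina1f are also on the male-biased list, and Slco1a6, Slc16a9 and Rnf24 on the female-biased list. Their log2 fold changes were 0.16, -0.03, -1.43, 0.19, -0.66, -0.01 and -1.41, and none was called. The S3 and sex-biased results thus share genes. All 3 NA-titled libraries lay below all 3 others in 9 of the 20, next to 13.3% of all genes, and above in none. In the S1 and S2 segments 2 organic anion transporter genes that lie next to each other on chromosome 19 changed in opposite directions. Slc22a6 (8618039 to 8628299, GRCm38) was at 1374, 1766 and 1586 CPM against 973, 998 and 1003 CPM and fell by 0.67 on the log2 scale, and Slc22a8 (8591254 to 8611835) was at 649, 477 and 553 CPM against 883, 868 and 1122 CPM and rose by 0.77 (adjusted p = 0.0305 and 0.0464 in edgeR). Summed levels of the S1 and S2 markers were 51795 to 56191 CPM in the NA-titled and 62838 to 77737 CPM in the other-titled libraries, and those of the S3 markers 15295 to 19489 against 20091 to 23824 CPM. The first sum rests on Kap: without it the S1 and S2 markers summed to 37392, 39743 and 37025 CPM in the other-titled and 34480, 34764 and 37470 CPM in the NA-titled libraries, which overlap. The S1 and S2 list had a median log2 fold change of -0.07, with 15 of 30 genes positive. Calls were lost without G1NF_28, GNA1_18, NAP_3 or NA_27 for Atp11a, without G1NF_28, GNA1_18, NAP_3, NA_27 or NA_30 for Slc22a19, without GNA1_18, NAP_3, NA_27, NA_30 or NA_39 for Cyp7b1, without GNA1_18, NAP_3, NA_27, NA_30 or NA_39 for Slc22a6 and on leaving out any 1 library for Slc22a8, and with the genotype label as a term for all 5. With library totals alone Slc22a19 and Cyp7b1 were not called, in limma-voom Cyp7b1 was not, and with all 10 libraries in the fit Slc22a19 and Slc22a6 were not.

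Distal genes lay the other way. Of 18 markers of the distal convoluted tubule and the connecting tubule, 3 rose, next to 1.15% of all genes: Pvalb, the calcium buffer parvalbumin, at 46.5, 46.4 and 61.0 CPM against 100.1, 108 and 132 CPM, Trpm6, the magnesium channel gene, at 12.2, 12.5 and 11.3 CPM against 19.4, 22.6 and 20.6 CPM, and the kallikrein gene Klk1 at 1516, 1666 and 1217 CPM against 2400.2, 2318 and 2160.0 CPM (log2 fold changes 1.15 ± 0.15, 0.79 ± 0.10 and 0.64 ± 0.13, adjusted p = 0.0197, 0.0191 and 0.0490 in edgeR). Of 17 intercalated cell genes 3 rose, next to the same 1.15%: the ammonia transporter gene Rhbg at 10.2, 11.6 and 11.1 CPM against 20.8, 21.6 and 25.9 CPM, the pendrin gene Slc26a4 at 52.1, 42.7 and 40.3 CPM against 85.2, 73.7 and 99.1 CPM, and the proton pump subunit gene Atp6v1g3 at 40.8, 44.8 and 37.0 CPM against 60.9, 60.9 and 74.7 CPM (adjusted p = 0.0159, 0.0303 and 0.0347 in edgeR). All 3 NA-titled libraries were above all 3 others in 10 of the 18 distal and 11 of the 17 intercalated cell genes, next to 13.1% of all genes. The call of Klk1 was lost on leaving out any 1 library, that of Pvalb without G1NF_28, GNA1_18 or NA_27, that of Trpm6 and that of Atp6v1g3 without G1NF_28, GNA1_18, NAP_3, NA_27 or NA_39, that of Rhbg without GNA1_18 or NAP_3 and that of Slc26a4 without GNA1_18, NAP_3, NA_27 or NA_39, and with the genotype label as a term Trpm6, Klk1, Slc26a4 and Atp6v1g3 were not called. Hsd11b2 of principal cells and Egfl7 of endothelium rose as well, each the 1 called gene of its list, with 14 and 24 genes tested, next to 1.15% of all genes. Hsd11b2 lost its call on leaving out any 1 library and Egfl7 without G1NF_28, GNA1_18, NAP_3, NA_27 or NA_39, and both with the genotype label as a term. Hsd11b2 was also not called in limma-voom or with all 10 libraries in the fit. None of 45 cytosolic ribosomal protein genes was called in edgeR, where 22 had an unadjusted p under 0.05, or in limma-voom, and DESeq2 called 1. Of the 45, 26 lay above in all 3 NA-titled libraries, next to 13.1% of all genes, and 44 had positive log2 fold changes. Their median log2 fold change was 0.22 and became 0.28 when libraries were scaled by their totals alone.

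Other named genes with large contrasts had a range of functions. Ly6c2, a surface antigen gene of monocytes and other cells, was at 0.446, 0.270 and 0.624 CPM against 7.76, 6.83 and 5.16 CPM, or 3.88 ± 0.33 on the log2 scale (adjusted p = 0.00861 in edgeR). Spink6, of the Kazal-type protease inhibitors, had 1, 1 and 0 counts in the other-titled libraries and 261, 152 and 83 in the NA-titled ones, so no fold is given. The transcript E030030I06Rik rose from 0.0955, 0.101 and 0.257 CPM to 2.64, 2.22 and 2.08 CPM. Spink6 and E030030I06Rik passed the low-count filter through the NA-titled set. Among the falls, the phosphoinositide phosphatase gene Mtmr7 was at 18.03, 31.5 and 13.5 CPM against 2.01, 1.97 and 2.51 CPM, or -3.28 ± 0.34 on the log2 scale, and the lipid-binding gene Sec14l3 at 21.7, 26.3 and 22.7 CPM against 0.723, 3.71 and 0.804 CPM, or -3.75 ± 0.59 (adjusted p = 0.0139 and 0.0305 in edgeR). The potassium channel subunit gene Kcng1 was at 10.3, 9.57 and 8.59 CPM against 1.51, 1.80 and 1.34 CPM, or -2.61 ± 0.18 (adjusted p = 0.00772 in edgeR). Esr2, the gene for estrogen receptor beta, was at 2.42, 3.01 and 1.84 CPM against 0.346, 0.451 and 0.234 CPM. The pseudogene Gm6300, whose reads can be shared with copies, was at 61.9, 70.8 and 53.9 CPM against 3.39, 4.93 and 0.636 CPM. Ctxn3, Sox2ot, Sorcs1, Gm12844 and Astn1 complete the 12 largest falls, with log2 fold changes from -3.63 to -2.41. Calls were lost without G1NF_28, GNA1_18, NAP_3, NA_27 or NA_39 for Sec14l3, without GNA1_18, NAP_3, NA_27, NA_30 or NA_39 for Sorcs1, without GNA1_18, NAP_3 or NA_27 for Gm6300 and Ctxn3, without GNA1_18 or NA_27 for Sox2ot and Esr2, without NA_27 for Mtmr7, and without GNA1_18 for Spink6, E030030I06Rik, Gm12844 and Astn1, whereas Ly6c2 and Kcng1 were called in all 12 alternatives. With the genotype label as a term Sec14l3, Ctxn3 and Sorcs1 were not called, in limma-voom Sorcs1 was not, and with all 10 libraries in the fit Gm12844 was not.

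Several gene groups held genes with a pattern other than the title sets or driven by 1 library, and the genes named for them were chosen after their values were seen. Fat genes had the widest range of the 54 lists, 5.06 on the log2 scale of the list mean. Ucp1, the uncoupling protein of brown fat, was at 14.2, 14.5 and 43.6 CPM in the other-titled and 0.346, 7.38 and 0.0335 CPM in the NA-titled libraries, and Adipoq, for adiponectin, at 12.3, 8.69 and 32.6 CPM against 0.471, 14.6 and 0.502 CPM. Both were highest in NAP_3 and lowest in NA_27 and NA_39. NA_30 lay within the other-titled range for Adipoq and below it for Ucp1. None of the 16 was called in edgeR or limma-voom, 6 had an unadjusted p under 0.05 in edgeR and DESeq2 called 1. The summed level of the 16 fat genes was 578, 524 and 1295 CPM against 218, 535 and 247 CPM. Liver transcripts stood out in G1NF_28: Alb, for albumin, was at 185, 8.08 and 10.3 CPM against 20.4, 10.9 and 11.3 CPM and Mup3, a major urinary protein gene, at 17.5, 2.54 and 1.21 CPM against 0.974, 0.612 and 0.268 CPM. Ttr, for transthyretin, differed from these, with 372, 291 and 1.69 CPM against 2.92, 2.13 and 2.65 CPM, so that it was high in both G1NF_28 and GNA1_18. Of the 21 genes on this list 7 pancreatic ones had no count in any library.

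Antigen presentation was highest in NA_39. Cd74, the invariant chain of MHC class II, was at 178, 139 and 166 CPM against 289, 291 and 1759 CPM, and H2-Ab1 at 60.03, 51.4 and 60.6 CPM against 109, 107 and 574 CPM. Genes induced by interferon gamma were high in the same library: Igtp was at 27.5, 16.8 and 14.3 CPM against 15.6, 14.1 and 176 CPM and Gbp6 at 0.382, 0.406 and 0.1102 CPM against 0.408, 0.290 and 12.9 CPM. None of the 10 class II, 14 class I or 36 interferon response genes was called in edgeR or limma-voom. Of these 8, 6 and 17 had an unadjusted p under 0.05 in edgeR, and DESeq2 called 0, 1 and 1. All had positive log2 fold changes, and 5, 3 and 12 lay above in all 3 NA-titled libraries, next to 13.1% of all genes, while the rest overlapped. Among the 12, Oas1a was at 1.88, 1.66 and 1.87 CPM against 2.61, 2.64 and 2.58 CPM, so NA_39 did not stand out in it. The median log2 fold change of the class II genes was 1.68, and 0.69 without NA_39. Of 24 tested immediate early genes, which respond within minutes to stimuli, 16 were highest in NA_30, 4 in NAP_3, 2 in NA_27 and 1 each in GNA1_18 and NA_39. None was called in edgeR or limma-voom, 5 had an unadjusted p under 0.05 in edgeR and DESeq2 called 2. Fos was at 0.732, 0.947 and 3.08 CPM against 0.880, 11.1 and 2.85 CPM and Atf3 at 2.42, 2.23 and 4.70 CPM against 2.04, 45.7 and 2.41 CPM. Hba-a2, 1 of the 2 near-identical alpha globin genes, was at 0.318, 0.372 and 0.624 CPM against 51.1, 91.7 and 0.871 CPM, whereas its copy Hba-a1 was at 157, 228 and 278 CPM against 212, 381 and 428 CPM; reads of these copies can be split between them.

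**Figure D5:**
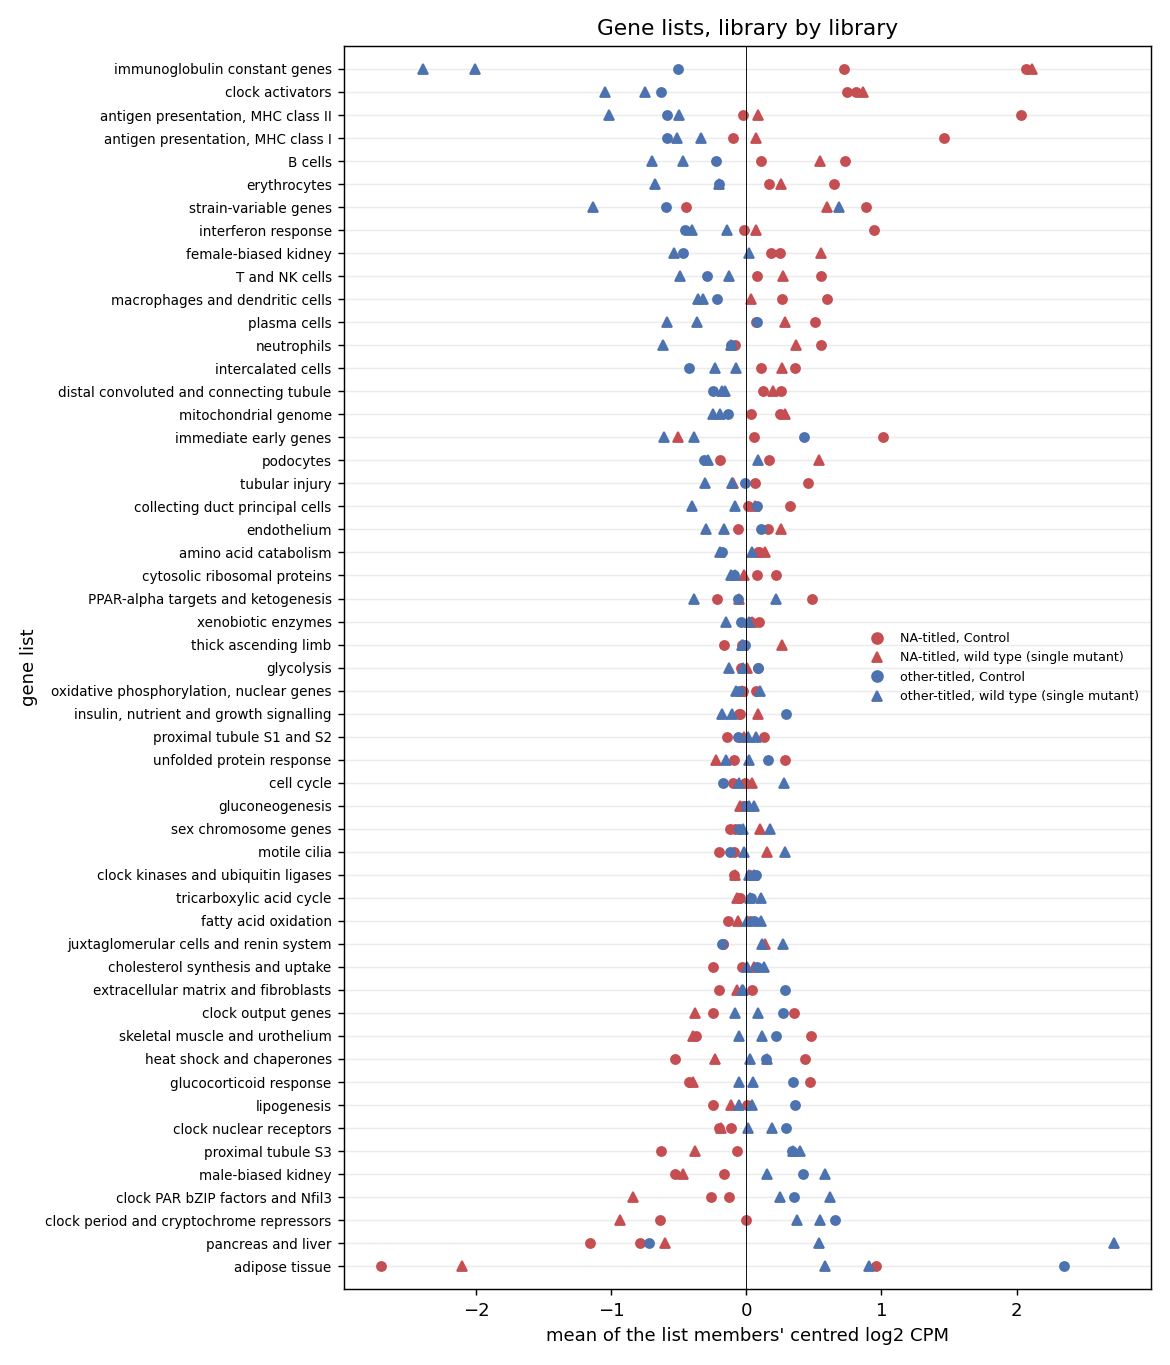
Mean of the centred log2 CPM of the tested members (horizontal axis) for the gene lists (vertical axis, ordered by the difference between the sets) in each library; red marks NA-titled and blue other-titled libraries, circles Control and triangles wild type (single mutant). Clock activators and repressors separate the colours, MHC class II and class I stand out through the single red circle of NA_39, and adipose tissue has the widest range with 2 red libraries at the left end.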

How the data were processed

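RNA of frozen kidneys was sequenced as poly(A) TruSeq libraries, single-end at 100 bases, per the labels' protocols. The deposited values are raw read counts per gene, which the authors made with STAR 2.4.1d and HTSeq 0.6.1 on GRCm38, after base calling with CASAVA 1.8.2 and steps named FastQC and Trim Galore, per the submitters' processing notes. Strand setting and gene annotation: not given in the sources used here, so reads of a gene and of an overlapping antisense gene may not be separated. Of 46517 gene IDs, 46005 were matched to GENCODE M21 names. The title sets were compared with edgeR 4.0.16 (TMM scaling, its filter at a minimum count of 10, quasi-likelihood test, Benjamini-Hochberg adjusted p under 0.05) over the 6 libraries, in R 4.3.3; the fitting step was tested on simulated data. Given levels are TMM-scaled CPM, except those of Slc34a1, Umod, Aqp2, Lcn2 and Havcr1, which are scaled by library totals. No 2 libraries agreed within sampling noise (chi-square per gene of 26.2 to 142 over 15 pairs).

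The 12 alternatives were DESeq2 1.42.0, scaling by library totals, no low-count filter, the genotype label as a term, all 10 libraries in 1 fit, limma-voom (limma 3.58.1), and each library left out in turn. Named genes are the 12 largest rises and falls with a mean of at least 1 CPM, the core clock genes, up to 4 members of each list of clock, cell or metabolic genes with at least 3 calls and of the plasma cell, B cell and immunoglobulin constant lists, the 15 genes of widest range at 5 CPM or more and the 5 most like Dbp; other names were chosen after their values were seen. The members and the 54 lists (1001 of 1097 symbols tested) were chosen with earlier results of these data known. Some genes that this rule names are not reported here.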

Additional observations from a re-analysis of the deposited data

Results flagged for a closer look

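In 3 of 53 gene lists 1 library stood apart from the other 5 by Dixon's criterion, which chance meets in about 1 of 20 groups. The mean centred log2 CPM of MHC class II genes was 2.03 in NA_39 against -1.01 to 0.09 in the other libraries, and that of MHC class I genes 1.46 in NA_39 against -0.58 to 0.07. Thick ascending limb genes stood at 0.26 in NA_27 and at -0.17 to -0.01 in the others.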

How the results depend on the processing

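Against 187 higher and 274 lower genes, DESeq2 called 592 and 754, the fit without a low-count filter 327 and 398, library totals alone 194 and 192, all 10 libraries in the fit 235 and 278, limma-voom 163 and 253, and the fit with the genotype label 52 and 61. Leaving out each library in turn gave 9 to 192 higher and 3 to 204 lower genes. All calls kept their sign wherever they were tested. As no called gene overlapped between the sets, this was close to fixed in advance and tests little. For Cry1 (-0.00 on the log2 scale) the sign changed with library totals (0.061) and without the filter (0.001), and leaving out libraries gave -0.581 to 0.362. Bhlhe40 (-0.02) was 0.034 with library totals and -0.200 to 0.119 when libraries were left out. Nccrp1 (0.05), lowest in NA_39, was -1.505 in limma-voom and -0.639 to 0.629 when libraries were left out. None of these 3 genes was called, and the cause was not tested. No paired analysis was possible because the replicate numbers follow the order of deposit and pair no libraries. With 3 libraries a set, an exact permutation test of 1 value cannot go below p = 0.1.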

Other observations

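Among abundant genes, named here after their values were seen, Ndrg1, a stress-responsive gene, was at 1233, 1643 and 1330.1 CPM in G1NF_28, GNA1_18 and NAP_3 and 4206, 4287 and 4269 CPM in NA_27, NA_30 and NA_39, a log2 fold change of 1.60 ± 0.12 (adjusted p = 0.00807 in edgeR). It was called in all 12 alternatives, and both sets lay in narrow bands. Defb1, an epithelial defensin gene, was at 112, 133 and 122 CPM against 305, 283 and 336 CPM, and Prps2, for a phosphoribosyl pyrophosphate synthetase, at 53.9, 52.5 and 54.7 CPM against 153, 128 and 151 CPM. Pttg1, the securin gene, was at 6.43, 7.37 and 5.43 CPM against 23.2, 27.1 and 27.6 CPM. These 3 were likewise called in all 12 alternatives.

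Above a mean level of 5 CPM, 16 genes stood at least 10-fold apart from the others in 1 library. C1s1, a complement protease gene, was at 0.0628 CPM in NA_27 and 11.2 to 17.0 CPM elsewhere, and Gcnt1, a glycosyltransferase gene, at 6.97 CPM in NA_27 and 227 to 570 CPM elsewhere. In NA_39, Col6a6 was at 3.95 CPM against 72.4 to 77.8 CPM, and Ugt1a10 at 5.36 CPM against 70.5 to 121 CPM. Ugt1a8 and Ugt1a9, which share exons with Ugt1a10, were at 0 and 0.1005 CPM in NA_39 and at 5.94 to 10.7 and 8.51 to 20.06 CPM elsewhere.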
